A study of Mus musculus with 71 samples.

Results

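In H3K27ac HiChIP of hSS2 mouse SyS tumors, 259 of 24244 listed loops joined anchors whose midpoints lay at least 1 Mb apart and carried at least 2 paired-end tags, each tag being a read pair with an end in either anchor. These loops were chosen by their span and their tag count, so both measures, and the FDR that depends on them, are given here as description only. The merged list came from 2 tumors of mice that express human SS18::SSX2 from the Rosa26 locus once Cre removes a floxed stop, and the fusion was switched on in the hindlimb by injecting TATCre protein 8 days after birth. Whole tumors were dissociated, so cells other than tumor cells could contribute tags. The list holds no value labelled by tumor, no control tissue and no labelled replicate, and no test between tumors or conditions was possible. It consists of a first part of 13683 loops and a second part of 10561 loops, each sorted by position, which could not be assigned to a tumor. The first part held 246 of the 259 loops and the second part 13.

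H3K27ac marks active promoters and enhancers, and HiChIP captures pairs of DNA fragments that are close in the nucleus when at least one of them carries the mark. A promoter and an enhancer joined in this way are read as a regulatory loop, and most such contacts fall within a domain of chromatin that folds on itself. Contacts over longer distances can also link active promoters that lie in separate domains, and clustered genes such as those of the replication-dependent histones, which package newly made DNA, are known to gather in one nuclear body.

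The sequences below are the 250 bases upstream of RefSeq TSSs on GRCm38.p6 at anchors that the results turn on, written along the strand of the gene, and none of them overlaps an annotated exon. Capitals mark CCAAT (the box bound by NF-Y), the TATA-like TATAAA, and the GC box GGGCGG, or their reverse complements. The first 4 belong to histone genes joined across the chromosome 13 histone clusters: Hist1h1b (chr13:21780626-21780875, minus strand), Hist1h3h (chr13:21717378-21717627, plus strand), Hist1h2bk (chr13:22035571-22035820, plus strand) and Hist1h4d (chr13:23581318-23581567, plus strand). The others belong to Brat1 (chr5:140704761-140705010, plus strand) and Gna12 (chr5:140830432-140830681, minus strand), which held several of the loops each, and to Cdc16 (chr8:13757406-13757655, plus strand) and Clcn4 (chr7:7299558-7299807, minus strand), at anchors of loops with 4 tags.
Hist1h1b: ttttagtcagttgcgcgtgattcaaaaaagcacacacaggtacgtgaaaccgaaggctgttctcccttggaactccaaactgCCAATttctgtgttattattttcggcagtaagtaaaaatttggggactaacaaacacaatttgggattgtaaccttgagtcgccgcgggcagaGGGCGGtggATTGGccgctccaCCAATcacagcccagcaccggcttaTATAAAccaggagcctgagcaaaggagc
Hist1h3h: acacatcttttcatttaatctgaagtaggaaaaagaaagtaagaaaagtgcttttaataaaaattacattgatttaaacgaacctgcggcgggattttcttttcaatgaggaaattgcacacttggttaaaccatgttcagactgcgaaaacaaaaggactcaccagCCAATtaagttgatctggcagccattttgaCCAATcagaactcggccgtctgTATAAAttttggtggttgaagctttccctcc
Hist1h2bk: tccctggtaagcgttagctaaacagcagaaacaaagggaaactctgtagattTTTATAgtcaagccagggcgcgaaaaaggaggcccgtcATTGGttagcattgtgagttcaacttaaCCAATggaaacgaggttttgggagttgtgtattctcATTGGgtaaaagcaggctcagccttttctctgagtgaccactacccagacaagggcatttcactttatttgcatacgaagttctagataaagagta
Hist1h4d: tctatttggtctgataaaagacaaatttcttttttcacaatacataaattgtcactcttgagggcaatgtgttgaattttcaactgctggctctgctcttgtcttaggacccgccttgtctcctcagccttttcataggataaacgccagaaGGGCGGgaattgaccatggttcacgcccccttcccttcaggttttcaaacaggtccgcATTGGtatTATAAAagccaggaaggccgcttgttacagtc
Brat1: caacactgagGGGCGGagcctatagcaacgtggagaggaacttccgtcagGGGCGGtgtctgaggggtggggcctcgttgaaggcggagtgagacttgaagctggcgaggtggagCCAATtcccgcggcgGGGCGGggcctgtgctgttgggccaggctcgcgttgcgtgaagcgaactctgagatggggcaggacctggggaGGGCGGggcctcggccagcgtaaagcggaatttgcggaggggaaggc
Gna12: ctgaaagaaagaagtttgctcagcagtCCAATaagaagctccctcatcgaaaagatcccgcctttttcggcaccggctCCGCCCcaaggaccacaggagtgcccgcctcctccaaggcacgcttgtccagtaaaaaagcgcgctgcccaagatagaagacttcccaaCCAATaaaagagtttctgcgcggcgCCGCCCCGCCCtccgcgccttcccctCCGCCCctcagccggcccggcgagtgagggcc
Cdc16: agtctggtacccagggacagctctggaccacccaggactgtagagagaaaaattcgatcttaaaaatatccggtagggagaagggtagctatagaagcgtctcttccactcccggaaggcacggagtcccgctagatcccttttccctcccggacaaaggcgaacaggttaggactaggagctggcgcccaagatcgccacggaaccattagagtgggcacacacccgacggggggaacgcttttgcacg
Clcn4: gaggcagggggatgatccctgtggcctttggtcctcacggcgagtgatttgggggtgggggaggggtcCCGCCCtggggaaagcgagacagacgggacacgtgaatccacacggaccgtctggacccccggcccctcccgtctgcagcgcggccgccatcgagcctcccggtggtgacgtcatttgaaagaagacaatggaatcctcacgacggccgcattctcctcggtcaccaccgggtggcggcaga

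Sequences of 2 anchors without a protein-coding TSS are shown as well, on the plus strand of GRCm38. The first is the middle 150 bases of an intergenic anchor on the X chromosome (chrX:11808172-11808321), which met Mid1ip1 with 4 tags and has no gene to name it by. The other is a stretch of 60 bases (chr12:19389165-19389224) that is present in both anchors of a loop on chromosome 12, so that a read lying within it has more than 1 place of origin.
distal anchor of Mid1ip1: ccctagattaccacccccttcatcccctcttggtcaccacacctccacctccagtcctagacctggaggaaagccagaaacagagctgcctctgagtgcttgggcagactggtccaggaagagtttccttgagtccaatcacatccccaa
shared by both chromosome 12 anchors: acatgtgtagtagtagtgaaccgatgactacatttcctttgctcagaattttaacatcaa

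The histone promoters differed from the others shown in these letters. Each of the 4 held CCAAT and TATAAA, and their GC content lay between 37.6% and 48.4%, against 56% to 66.4% in the other 4. This gap in GC content holds for the promoters shown only. Among others at these anchors, it was 54.8% for Hist1h1a and 50.8% for Sox4. Over all 23 histone promoters of the RefSeq table at the anchors of these loops, 22 held CCAAT and 14 held TATAAA on either strand. CCAAT was found in 39.2% of all 571 promoters at these anchors (95% Wilson interval 35.3% to 43.3%), in 35.5% of the 11009 promoters at any loop anchor and in 33.8% of the 32851 promoters of the table. TATAAA was found in 10.3% (8.10% to 13.1%) of promoters at these anchors in 5.77% (5.35% to 6.22%) of those at any anchor and in 12.4% (12.02% to 12.7%) of the whole table. Without the 23 histone promoters it was found in 8.21% (6.19% to 10.8%) of promoters at these anchors. This interval overlapped that of promoters at any anchor only narrowly, and histone promoters were not removed from the latter set. The part of histone promoters in the TATAAA difference was therefore not tested. GGGCGG was found in 57.6% (53.5% to 61.6%), 59.9% and 32.7% of the same sets. A match describes the letters of the window only.

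Tags were few. Of the 259 loops, 229 had 2 tags, 24 had 3 and 6 had 4, for 554 tags out of 41574 in the list. The spans ran from 1.000 to 1.99 Mb with a median of 1.27 Mb, and the middle 50% lay between 1.105 and 1.585 Mb. No loop of the list spanned more than 2 Mb, so the list itself bounds these spans from above. The median span was 1.27 Mb with 2 tags, 1.30 Mb with 3 and 1.07 Mb with 4. The FDR given by the loop caller ranged from 8.31e-09 to 0.000651. Single-tag loops of at least 1 Mb all had an FDR of 0.0262 in the first part of the list and of 0.0118 in the second. Of the 5204 loops of at least 1 Mb, 4.98% had 2 or more tags, and this share was 6.70% in the first part of the list and 0.849% in the second. It fell from 7.47% of loops spanning 1 to 1.1 Mb to 4.18% of those spanning 1.9 to 2 Mb. Just inside the span threshold were Clta with Zbtb5 on chromosome 4 (2 tags, 1000.03 kb) and Znrf3 with H2afv on chromosome 11 (2 tags, 1000.5 kb). Just outside it were Hacd1 with Arl5b on chromosome 2 (2 tags, 999.1 kb) and R3hdm2 with Ankrd52 on chromosome 10 (2 tags, 997.5 kb).

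**Figure D1:**
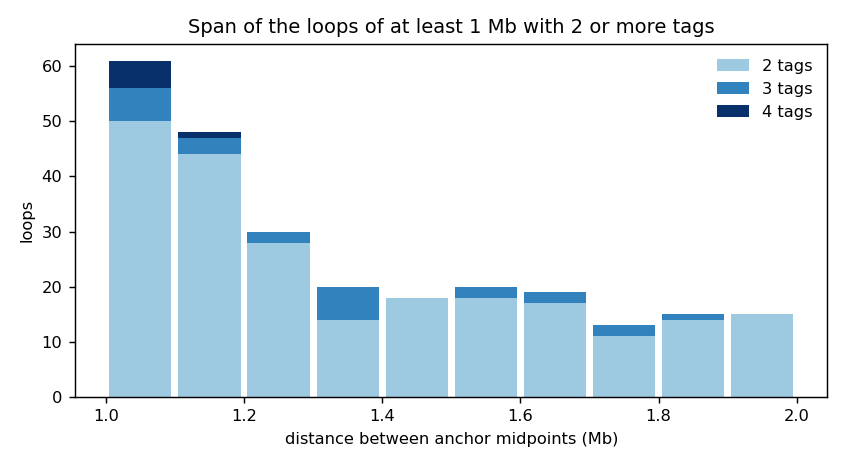
Number of loops (vertical axis) by distance between anchor midpoints in Mb (horizontal axis, bins of 0.1 Mb), coloured by tag number. The bin from 1 to 1.1 Mb held 61 loops and that from 1.9 to 2 Mb held 15, and 5 of the 6 loops with 4 tags lay in the first bin.

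Most of these loops had a promoter at both anchors, as did most loops of the list (74.02%). An anchor was counted as a promoter when any TSS lay within 2 kb of it. Both anchors were promoters in 226 of 259 loops (87.3%, 82.6% to 90.8%), and a single anchor was a promoter in the other 33. No loop lacked a promoter at both ends. If 0 loops are taken to allow up to 3, 0 of 259 allows a share of up to 1.16%, and the Wilson interval allows up to 1.46%. Among loops of at least 1 Mb with a single tag, 76.8% (75.6% to 77.9%) had promoters at both anchors and 2.41% (2.01% to 2.87%) at neither. The parts of the list differed in this measure, so the same sets were compared within the first part. There, 87.8% (83.1% to 91.3%) of the long loops with 2 or more tags had promoters at both anchors, against 81.8% (80.4% to 83.0%) of long single-tag loops, and these intervals did not overlap. The share over all loops of the first part was 82.4% (81.8% to 83.1%). A promoter was at neither anchor in 0 of 246 long loops with 2 or more tags (at most 1.54% by the Wilson interval) and in 1.17% (0.858% to 1.59%) of long single-tag loops, and these intervals overlapped. For promoters at both anchors, loops of 100 kb to 1 Mb with 2 or more tags stood at 84.7% (83.4% to 85.9%). This share lay between those of the long loops with 2 or more tags and the long single-tag loops. Its interval overlapped that of the long loops with 2 or more tags. In the second part, 10 of 13 loops had promoters at both anchors, an interval of 49.7% to 91.8% that allows no comparison. All these intervals cover counting error only, and they are too narrow because loops that share an anchor are not independent.

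**Figure D2:**
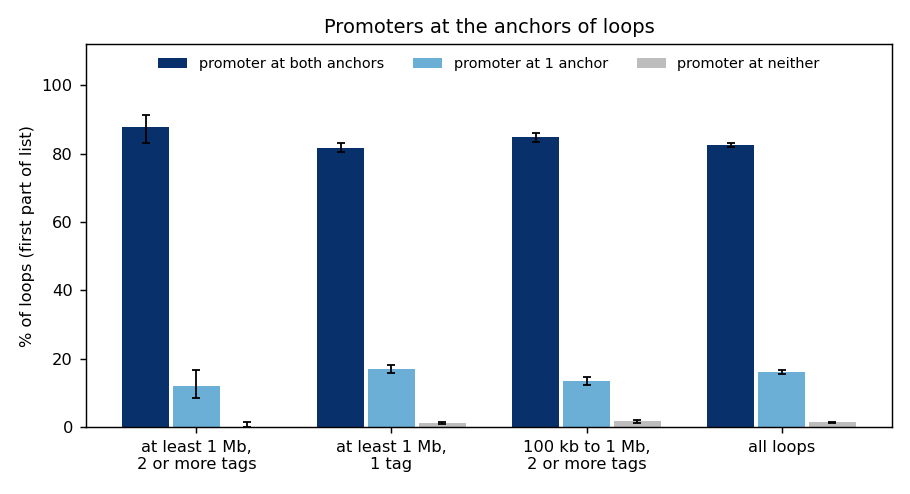
Percent of loops (vertical axis) in the first part of the list with a promoter at both anchors, at 1 anchor or at neither, for 4 sets of loops (horizontal axis). Bars are shares, and error bars are 95% Wilson intervals. Long loops with 2 or more tags reached 87.8% with promoters at both anchors, against 81.8% of long loops with 1 tag.

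The 463 distinct anchors of these loops had a higher ratio of observed to expected CpG and more loops at the median than all anchors of the list. The sets of all anchors and of all promoter anchors come from both parts of the list, while most of these loops are in the first. The part of this difference in the comparisons was not tested. Their median ratio of observed to expected CpG was 0.63 (quartiles 0.51 and 0.72), against 0.58 at anchors of long single-tag loops of the first part and 0.50 over all 16864 anchors of the list. For the 430 promoter anchors alone the ratio was 0.64, against 0.56 over all promoter anchors. Their median GC content was 53.2%, against 51.3% for all anchors. They were also wider, with a median of 2.89 kb against 2.59 kb, and the part of anchor width in these comparisons was not tested. The number of MboI sites, at which the chromatin was cut, was 5 at the median in both sets. The median anchor had 3 loops shorter than 1 Mb, against 2 for anchors of long single-tag loops of the first part and 1 for all anchors. At least 1 such shorter loop was listed at 85.3% (81.8% to 88.2%) of these anchors, at 77.6% (76.3% to 78.8%) of those of long single-tag loops of the first part and at 89.3% (88.8% to 89.7%) of all anchors. Both anchors had such shorter loops in 197 of the 259 loops (76.1%, 70.5% to 80.9%). Within the first part this was so for 190 of 246 (77.2%, 71.6% to 82.03%), against 69.0% (67.4% to 70.5%) of the long single-tag loops.

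The CTCF consensus, the motif of the factor that stops loop extrusion, was rare at these anchors in its strict form. It matched 8 of 463 anchors (1.73%, 0.878% to 3.37%) and 2.20% of all anchors of both parts of the list. With a relaxed consensus the shares were 16.6% (13.5% to 20.3%) and 18.6% (18.03% to 19.2%). Neither form separated these anchors from the rest of the list beyond its interval.

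The stretch between the anchors held fewer genes than under long single-tag loops. A median of 15 protein-coding genes lay between the anchors (quartiles 7 and 29), against 23 (10 and 40) for single-tag loops of the first part. Per Mb of span these medians were 11.9 and 16.5 genes. The range was wide, from 0 genes in 3 loops to 103 genes between Ptbp1 and Gna11 on chromosome 10.

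The 6 loops with 4 tags spanned 1.01 to 1.13 Mb. On chromosome 18, the anchor of Zfp521, a zinc finger regulator of progenitor cells, met that of Kctd1 at 1.09 Mb, and that of Fam210a and Rnmt, which encodes the mRNA cap methyltransferase, met that of the bHLH factor gene Tcf4 at 1.05 Mb. The loop of Cdc16, a subunit of the anaphase-promoting complex, to Cln8, which encodes a membrane protein of the endoplasmic reticulum, spanned 1.13 Mb on chromosome 8. It was also listed in the second part at the same anchors with 1 tag. Zfp667 and Clcn4, a chloride and proton exchanger, were 1.01 Mb apart on chromosome 7. The 2 loops left in this class had a distal anchor, which is one without a TSS within 2 kb. Bahcc1, whose product holds a chromatin-binding BAH domain, met an anchor inside Tbc1d16 at 1.02 Mb (chr11:119214384-119216414), 3.75 kb from the nearest TSS. Mid1ip1 on the X chromosome met an intergenic anchor at 1.09 Mb (chrX:11807325-11809169), 41.3 kb from the nearest TSS.

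Of the loops with 3 tags, the lowest FDR (6.02e-07) was that of Gm5784 with Gm16476, 1.23 Mb apart on chromosome 12. It is also the only loop with 3 tags from the second part of the list. Its anchors were near-identical copies, sharing 1487 distinct stretches of 31 bases, which is 80.1% of those in the smaller anchor, with a longest identical run of 694 bases. The assignment of reads between such copies is uncertain, and neither anchor had any other loop.

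Shared sequence was otherwise limited. In 13 of 259 loops (5.02%, 2.96% to 8.40%) the anchors had any 31-base stretch in common, against 3.94% (3.34% to 4.64%) of single-tag loops of at least 1 Mb in the first part. Besides the chromosome 12 pair, only 4 histone loops shared more than 50 such stretches, with 94 to 247 each.

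Other loops with 3 tags joined genes of known roles. Hcfc2 and Nuak1 lay 1.74 Mb apart on chromosome 10. Arid2, a subunit of the PBAF form of the BAF complex, met Twf1, an actin-binding protein gene, at 1.70 Mb on chromosome 15. Ankrd17 met Rchy1 and Thap6 at 1.60 Mb on chromosome 5, and the same Rchy1 and Thap6 anchor met Ccng2, a cyclin gene, at 1.31 Mb with 3 tags. Chosen after their values were seen, 3 further loops with 3 tags had developmental or growth control genes at an anchor. Gadd45g, a growth arrest and stress gene, met Nfil3, a bZIP repressor gene, at 1.13 Mb on chromosome 13. Pdgfra, the receptor gene of mesenchymal cells, met Usp46 at 1.09 Mb on chromosome 5. The homeobox gene Nkx2-2 met Rin2 at 1.33 Mb on chromosome 2.

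The 5 longest loops spanned from 1.97 to 1.99 Mb, close to the upper limit of the list at 2 Mb, each with 2 tags. They were 2610005L07Rik with Mrps31 on chromosome 8, Tmem114 with Nubp1 on chromosome 16, Lef1 with Gstcd and Ints12 on chromosome 3, and Hist1h1b with Hist1h1a and with Hist1h2bb on chromosome 13. Apart from Cdc16 with Cln8, the only loop listed in both parts at the same anchors was that of Akap8 with Rps18 and Vps52 on chromosome 17, at 1.64 Mb, with 2 tags in the first part and 1 in the second. This match required identical coordinates, so near matches between the parts were not counted. Anchor edges could differ between the parts, as at Gadd45g (chr13:51846087-51849252 in the first, chr13:51844956-51849252 in the second).

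Many of these loops shared anchors. An anchor was shared with another of the 259 loops in 87 loops (33.6%, 28.1% to 39.5%), and 44 of the 463 anchors took part in more than 1. With anchors within 5 kb joined, the loops fell into 199 groups, of which 165 were single loops. The largest group held 12 loops, on chromosome 5. A further measure was whether another listed loop ran parallel, with both of its anchor midpoints within 25 kb of those of the loop but at a different pair of anchors. This was so for 80 of the 246 loops of the first part (32.5%, 26.97% to 38.6%), against 17.3% (16.05% to 18.6%) of single-tag loops of at least 1 Mb in the same part. The intervals did not overlap, but they are too narrow, because loops of the set can be parallel to each other and are then not independent. Tag number chose the loops, and its relation to the number of nearby loops was not tested. With parallel loops of the first part only, the shares were 27.6% (68 of 246, 22.4% to 33.5%) and 13.9% (12.8% to 15.1%). Most had 1 parallel loop, and the maximum was 4, reached by a pair of histone loops.

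The loops were spread unevenly over the chromosomes. Chromosome 5 held 44 of them, chromosome 13 held 31, chromosome 17 held 21, chromosome 2 held 20 and chromosome 11 held 19, while chromosome 14 held 3. Chromosomes also differed in their loops of at least 1 Mb with any tag number. The first part listed 385 on chromosome 5, 382 on chromosome 11, 165 on chromosome 13 and 57 on chromosome 14. Within the first part of the list, the share of loops of at least 1 Mb with 2 or more tags was 16.97% on chromosome 13 (28 of 165, 12.01% to 23.4%), 13.04% on the X chromosome (6 of 46, 6.12% to 25.7%) and 11.4% on chromosome 5 (44 of 385, 8.62% to 14.99%). Without chromosomes 5 and 13 it was 5.57% (4.82% to 6.43%), and the intervals of chromosomes 5 and 13 lay above that interval, while that of the X chromosome overlapped it. Chromosome 11, with 382 loops of at least 1 Mb in the first part, stood at 4.19% (2.59% to 6.69%). Chromosome 17 stood at 7.09% (4.64% to 10.7%), chromosome 2 at 6.01% (3.92% to 9.09%) and chromosome 14 at 5.26% (1.81% to 14.4%). The intervals of chromosomes 2, 11, 14 and 17 all overlapped that of the share without chromosomes 5 and 13. Because tag number chose the loops, these shares describe where they lie and test nothing. The copy number of the tumors was not analysed here, and its part in these counts was not tested.

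**Figure D3:**
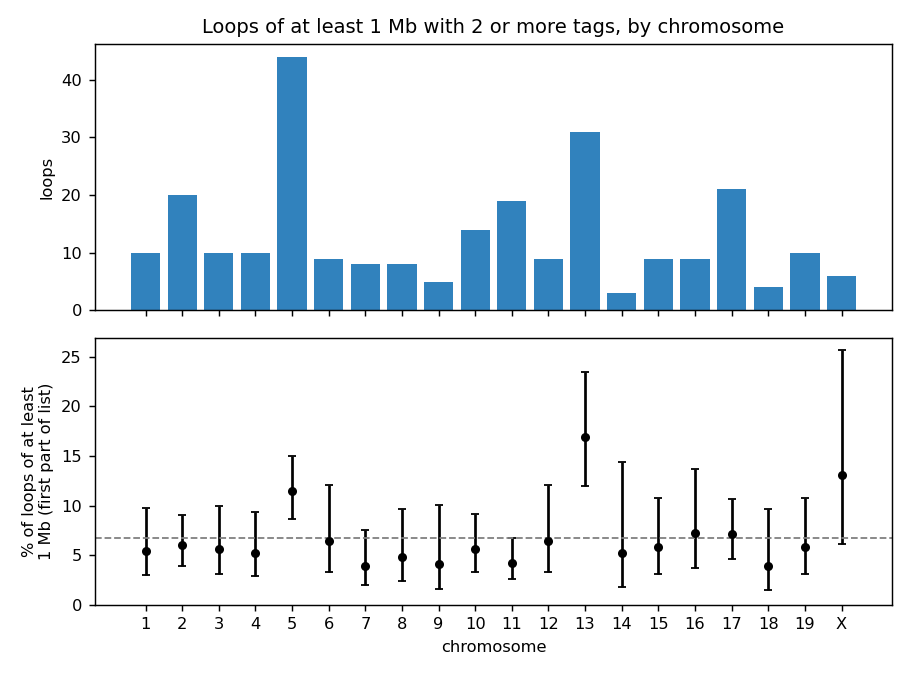
Number of loops of at least 1 Mb with 2 or more tags on each chromosome (upper axis), and their percent of all loops of at least 1 Mb in the first part of the list (lower axis, points with 95% Wilson intervals). The dashed line is the share over all chromosomes, 6.70%, and chromosomes 5 and 13 stand above it with their whole interval.

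On chromosome 5, 21 of the 44 loops lay within 5 Mb of a single anchor, a region singled out after the values were seen. The same region held 151 of the 341 long single-tag loops of the first part on this chromosome. It also held 529 of the 1355 loops of any span in that part. There, 12.2% (8.13% to 17.9%) of the loops of at least 1 Mb in the first part had 2 or more tags, an interval that includes the share over the whole chromosome. This anchor took part in more of the 259 loops than any other, and belongs to Brat1, which encodes a protein of the DNA damage response, and Iqce, a gene of the cilium (chr5:140700948-140706338), with 6 loops of 2 tags each. Its partners on one side were Get4 at 1.45 Mb, the homeobox gene Uncx at 1.16 Mb and an intergenic anchor near Uncx at 1.15 Mb. On the other side they were the forkhead gene Foxk1 at 1.70 Mb, Ap5z1 at 1.76 Mb and Wipi2, an autophagy gene, at 1.93 Mb. In all, this anchor had 17 loops and 35 tags in the list, and 7 of those loops were shorter than 1 Mb. The neighbouring anchor of Gna12, a G protein subunit gene, held 3 loops, to Mafk, to Foxk1 and to an intergenic anchor. Uncx also met Lfng, a modifier of Notch receptors, at 1.06 Mb.

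**Figure D4:**
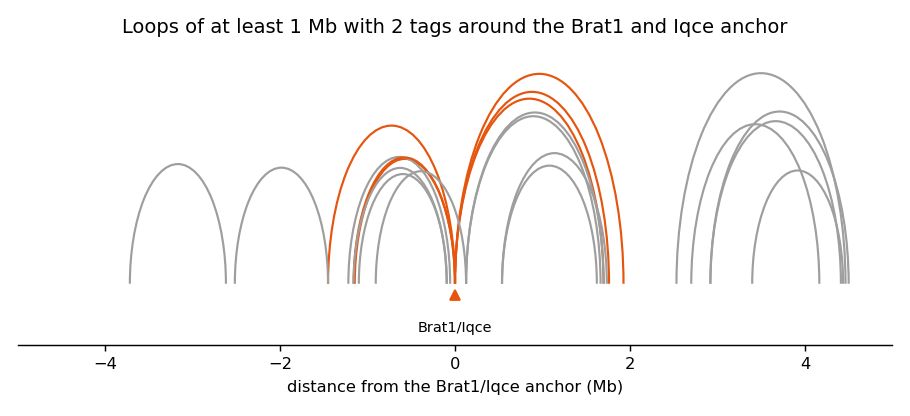
The 21 loops within 5 Mb of the Brat1 and Iqce anchor on chromosome 5, drawn as arcs from anchor to anchor against distance from the Brat1 and Iqce anchor in Mb (horizontal axis), with arc height set by the span. All have 2 tags, and the 6 orange arcs meet at the Brat1 and Iqce anchor.

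A further anchor with several partners lay on chromosome 10. The anchor of Ddit3, which encodes the stress factor CHOP, and of Mbd6 (chr10:127287653-127291376) took part in 4 loops. It met Cnpy2 at 1.03 Mb with 3 tags, and it met Ankrd52 at 1.09 Mb, Nabp2 and Rnf41 at 1.12 Mb, and Rpl41 and Zc3h10 at 1.26 Mb with 2 tags each. All 4 partners were promoters and lay on the same side, with 42 to 53 protein-coding genes between them and Ddit3. Each of the 4 loops had a parallel loop.

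The histone genes of chromosome 13 were also singled out after the values were seen. The Hist1 genes there form a block of 24 genes (chr13:21715763-22043676) and one of 31 genes (chr13:23531050-23934851), 1.49 Mb apart. Within 50 kb of these blocks, 8 loops with 2 tags each joined one block to the other, while 21 single-tag loops of the first part of the list and 13 of the second did so. Hist1h4d, a histone H4 gene (chr13:23580367-23586320), took part in 4 loops, which tied it with the Ddit3 anchor for second place. Across the gap it met the anchor of Hist1h2ai, Hist1h2bl and Hist1h3h at 1.87 Mb, that of Hist1h2ah and Hist1h2bk at 1.55 Mb and a distal anchor at 1.61 Mb, and on its other side it met BC005537 at 1.22 Mb. Hist1h1b and Hist1h3i, genes of linker histone H1 and of histone H3, met the anchor of Hist1h1a, Hist1h3a and Hist1h4a and that of Hist1h2bb and Hist1h3c. Of these 8 loops, 4 had 31-base stretches in common between their anchors and the other 4 had none. The part of reads placed at the wrong copy of near-identical histone genes was not tested further. Counted over the whole genome, 12 loops had a histone gene promoter (4.63%, 2.67% to 7.92%), against 1.23% of single-tag loops of at least 1 Mb in the first part and 0.652% of all loops, and 11 of the 12 were on chromosome 13. The promoter sequences of Hist1h1b, Hist1h3h, Hist1h2bk and Hist1h4d shown at the start belong to these anchors.

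**Figure D5:**
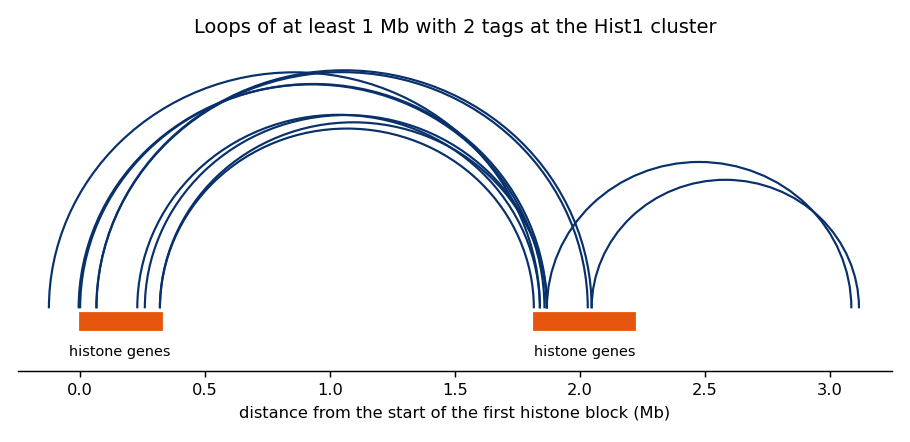
The 11 loops of at least 1 Mb with 2 tags at the histone genes of chromosome 13, drawn as arcs against distance from the start of the first histone block in Mb (horizontal axis), with arc height set by the span. Orange bars are the blocks of 24 and 31 histone genes, and 2 of the loops leave the second block away from the first.

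Genes activated during sarcomagenesis (SAT genes, the list of 185 from the source data of the study) had a promoter at 7 of the 259 loops (2.70%, 1.32% to 5.47%), against 2.14% of all loops. They covered 6 of the 104 SAT genes with any loop. Lef1, a transcription factor of the Wnt pathway, met Elovl6 at 1.58 Mb and Gstcd at 1.98 Mb. The homeobox genes Msx2 and Dlx6 met Higd2a at 1.12 Mb and an anchor inside Dync1i1 at 1.00 Mb. Cd24a met the forkhead gene Foxo3 at 1.30 Mb, and Reln, which encodes an extracellular matrix glycoprotein, met Kmt2e at 1.09 Mb. Aurkb, a mitotic kinase gene, met a group of promoters that includes Rnasek at 1.19 Mb. Every one of these loops had 2 tags. Genes with maintained expression (MAT genes, a list of 371) had a promoter at 12 loops (4.63%, 2.67% to 7.92%), against 5.52% of all loops. Both intervals include the share over all loops. The SAT and MAT lists were made by the study from expression data and not from these loops.

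Regulators of chromatin and transcription were present in small numbers. Genes of the Polycomb complexes and their partners had a promoter at 6 loops (2.32%, 1.06% to 4.96%), against 0.693% of all loops. They included Auts2, at both anchors of a loop of 1.00 Mb with 3 tags that joins TSSs of the same gene, Phc2, Jarid2, and Ring1, at an anchor of 2 loops within the major histocompatibility region. Homeobox genes outside the Hox clusters were at 6 loops (2.32%, 1.06% to 4.96%, against 1.16% of all loops), with Nkx2-2 in 2 of them and Dlx1, Dlx6, Meis1 and Msx2 in 1 each. Of the 34 Hox genes with any loop, 1 was at one of these loops (0.386%, 0.0682% to 2.15%), Hoxb2, which met Socs7 at 1.01 Mb. Hox genes were at 1.21% of all loops and at 0.438% of long single-tag loops of the first part. BAF subunit genes were at 2 loops (Arid2 and Bcl7a), which is 0.772% against 0.730% of all loops. Forkhead genes were at 4 (Foxk1 in 2, Foxo3 and Foxp1), which is 1.54% against 0.648%, with an interval of 0.602% to 3.90% that held the share of all loops. Genes of bHLH factors were at 2 (Tcf4 and Id4), which is 0.772% against 0.660%. Sox genes were at 1 (0.386% against 0.272%), in which Sox4 met E2f3, a cell cycle factor gene, at 1.03 Mb. Ribosomal protein genes were at 7 loops (2.70%, against 2.10% of all loops). T-box, Pax, Zic, Gli and related zinc finger genes were at 2 loops (0.772% against 1.04%), and Wnt, FGF and TGF-beta family ligands at 1 (0.386% against 0.272%). Genes of the chromatin architecture machinery, collagens, and the marker lists of immune, endothelial, epithelial and skeletal muscle cells were at 0 of the 259 loops, which allows up to 1.16% of loops for each list. Over the whole list, chromatin architecture genes were at 0.346% of loops, collagens at 0.111%, epithelial markers at 0.0784%, endothelial markers at 0.0206%, immune markers at 0.00825% and skeletal muscle markers at 0.00412%, each below that limit, so that 0 of 259 loops shows no difference from the list for any of them. Altogether 519 protein-coding genes had a TSS at an anchor of these loops, which is 5.17% of the 10035 with any loop.

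The 33 anchors without a promoter lay 2.23 to 101 kb from the nearest TSS, with a median of 15.03 kb. Of them, 13 were inside a gene body and 20 were intergenic. Each took part in 1 of these loops. The farthest was the anchor inside Dync1i1 that met Dlx6, and the next was an anchor inside Ror2 that met Gadd45g at 1.27 Mb, 90.7 kb from the nearest TSS. Loops under 1 Mb were listed at 27 of these 33 anchors (81.8%, 65.6% to 91.4%), a share that was 86.6% over all anchors without a promoter.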

How the data were processed

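H3K27ac HiChIP was run on 2 hSS2 tumors, with chromatin cut by MboI. For alignment to mm10 the authors used HiC-Pro, and for loops hichipper with the Mango model, after which a single list was made for both tumors. Each deposited row holds 2 anchors, a raw count of paired-end tags, and an FDR, which is an adjusted p-value from the loop caller. The limit on this FDR is 0.05 in the methods and 0.01 in a figure legend. Single-tag loops of at least 1 Mb had values above 0.01, so the deposited list was not limited to 0.01. The rule by which the list was merged is not given in the sources used here. Loops listed at the same anchors in both parts kept a separate count in each part. Cdc16 with Cln8 had 4 tags in the first part and 1 in the second. Akap8 with Rps18 and Vps52 had 2 tags in the first part and 1 in the second. The listed loops held 41574 tags, of which 554 fell in the 259 loops described, and this limits the precision of any single loop. These are tags of listed loops only and not the sequencing depth. No other sample of the series was analysed here.

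Loops with anchor midpoints at least 1 Mb apart and at least 2 tags were selected. The tag limit was applied to each listed loop within its part, so a contact with 1 tag in each part was not selected. The members and the gene lists were chosen with earlier results of these data known. An anchor within 2 kb of a TSS of GENCODE vM21 (GRCm38) was a promoter. Genes named were those of the 10 loops with the most tags, the 5 longest, loops at the same anchors in both parts of the list, the 3 anchors in the most loops and up to 10 loops with a SAT promoter. Other genes named are members of the lists, lie at a threshold or at the end of a range, or were chosen after their values were seen. Shares carry 95% Wilson intervals for counting error only, and 0 loops were taken to allow up to 3. No test was made, since no value could be assigned to a sample. The selection code was run on simulated loops, and it returned all 242 of 242 planted loops that meet the rule. The same rule set which planted loops were counted, so this checks the code only and says nothing about the listed loops.

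Promoter sequences and symbols came from RefSeq on GRCm38.p6, and 23 of 24 histone genes at the anchors matched. Python 3.11.15, pandas 2.3.3, numpy 2.4.6 and pysam 0.24.0 were used. Alternatives were promoter windows of 1 and 5 kb, protein-coding or RefSeq TSSs, at least 3 tags, other span limits, a limit of 0.01 on the FDR, either part of the list by itself, weighting by tags, parallel windows of 10 and 50 kb, joined anchors and other CTCF searches. Leaving out the histone region and loops with shared sequence was added after seeing the data.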

Additional observations from a re-analysis of the deposited data

How the results depend on the processing

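The share with promoters at both anchors lay between 84.2% and 90% under the other settings listed above, but was 76.9% in the second part of the list alone, which holds 13 loops. The share with a promoter at neither anchor rose to at most 0.386%, which is 1 loop, with a window of 1 kb, protein-coding TSSs or RefSeq TSSs. The share with a parallel loop was 11.2% with a window of 10 kb and 45.2% with one of 50 kb, since the window sets what is parallel, and 15.4% (2 of 13) in the second part alone. It was 27.6% in the first part when parallel loops of that part only were counted, and 30.2% without the loops at the chromosome 13 histone clusters. The share that shares an anchor was 0% in the second part alone. The share of anchors with the CTCF consensus was 16.6% with the relaxed form and 0.864% when only 2 kb around the anchor midpoint were searched. Leaving out the histone region or the loops with shared sequence moved the promoter shares by less than their intervals. No paired analysis was possible because no value of the merged list could be assigned to a tumor. The low tag numbers limit what the list can show, since 229 of the 259 loops would fall out at a limit of 3 tags.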
